A study of Mus musculus with 18 samples.

Results

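The testes of 15-day-old males that carry the Ttf chromosome 17 opposite the T43H translocation were compared, across all genes, with those of C57BL/6J males of the same age. The labels give the carriers as C57BL/10J-Ttf+/+T43H (n = 3 arrays) and the controls as C57BL/6J (n = 2 arrays), so these 5 arrays of the 18 in the series were chosen by their labels alone. T43H is a reciprocal translocation between chromosomes 16 and 17. The carriers sit on a C57BL/10J background and the controls are C57BL/6J, so strain and genotype cannot be told apart in this comparison. Each array holds RNA of a testis sample, and the design text calls the replicates biological. For side values the same carriers were set against 15-day t12/T43 testes (labelled C57BL/10J-t12+/+T43, n = 3), and sorted pre-mid-pachytene spermatocytes of 2-month-old Ttf/T43H males (n = 3) against those of C57BL/10J males (n = 2), which share no array with the testes. Values are log2 levels, and a gene was tested where at least 2 of the 5 arrays reached a log2 value of 4, which 9093 of 15780 named genes did.

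As background, the juvenile mouse testis passes through its first wave of spermatogenesis, and at this age its most advanced germ cells are spermatocytes in meiotic prophase, while haploid spermatids have not yet formed. At the pachytene stage homologous chromosomes are fully synapsed, chromatin that stays unsynapsed is silenced, and genes of sperm assembly begin to be transcribed. Proximal chromosome 17 holds the t complex and the major histocompatibility complex (MHC), and an animal with a translocation opposite an intact chromosome pairs these chromosomes as a cross.

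The arrays matched their label as juvenile testes. Spermatocyte genes of synapsis and the chromosome axis averaged a log2 level of 10.95 to 11.09 in Ttf/T43H testes and 10.81 to 10.89 in C57BL/6J testes, while 21 of 27 spermatid genes on the array did not pass the filter. The lowest correlation between replicate arrays was 0.991. The Gapdh probes at the 3' end minus those at the 5' end, a difference that grows as RNA is degraded, gave 0.14, 0.03 and -0.07 in Ttf/T43H arrays against -0.08 and -0.12 in C57BL/6J arrays. For actin it was larger, at 1.37, 1.24 and 1.12 in Ttf/T43H arrays against 1.21 and 1.11 in C57BL/6J arrays. Ttf/T43H replicate 1 was highest for both controls. Leydig cell genes stood apart on Ttf/T43H replicate 1, where the 9 tested members averaged 7.06. They averaged 8.73 and 8.97 on the other Ttf/T43H arrays and 8.75 and 9.07 on C57BL/6J arrays. Low means were not confined to that array, since t12/T43 testes gave 7.79, 7.38 and 8.99.

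Of the 9093 genes, 793 differed at an adjusted p under 0.05 (8.72%), by limma's moderated test with Benjamini-Hochberg adjustment over all genes. In Ttf/T43H testes 357 of them were higher (3.93%) and 436 lower (4.79%). Most differences were small, with a median of 0.43 log2 units among the rises and -0.47 among the falls, and the median of all genes was 0.00. A difference of 2-fold or more was reached by 43 rises (0.473%) and 68 falls (0.748%), and 4-fold or more by 14 in each direction. All 793 had no overlap between the groups' arrays, as had 44.3% of all genes tested. Leaving out Ttf/T43H replicate 1, 2 or 3 left 492, 356 or 832 genes called, and leaving out C57BL/6J replicate 1 or 2 left 256 or 233.

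The single largest difference was a fall in Smpx, the X-linked gene of a small muscle protein. Its level was 2.46, 2.39 and 2.40 in Ttf/T43H testes against 12.73 and 12.67 in C57BL/6J testes, a log2 difference of -10.29 ± 0.05 (SE, adjusted p = 4.5e-11). All 3 carrier arrays were thus near background while both controls lay far above it. The t12/T43 testes, also on the C57BL/10J background, read 2.39, 2.43 and 2.38. In sorted cells the gene stood at 2.38, 2.40 and 2.43 in Ttf/T43H against 7.60 and 7.27 in C57BL/10J, a difference of -5.03 ± 0.35 (adjusted p = 5.1e-04).

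The largest rise was in Plbd1, which encodes a phospholipase B domain protein. Levels were 8.75, 9.01 and 8.87 in Ttf/T43H testes against 2.36 and 2.78 in C57BL/6J testes, a difference of 6.30 ± 0.14 (adjusted p = 1.7e-06). Here both controls were near background and no carrier array was. In sorted cells, where the controls are C57BL/10J, the gene was measured on both sides, at 6.10, 4.65 and 5.41 in Ttf/T43H against 6.52 and 5.99 in C57BL/10J (-0.87, adjusted p = 0.33). Of these genes, then, Smpx was low in the carriers beside both sets of controls, and Plbd1 was high beside the C57BL/6J testes alone. Control strain, age and the cells used change together between these comparisons and cannot be told apart.

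Promoter sequence is shown for these extremes and for Hdhd3 and Alad, which lie side by side on chromosome 4 and both rose. Each run is the 250 bases before the annotated start from RefSeq (GRCm38.p6), 5' to 3' on the gene's strand. Capitals mark matches, on either strand, to the GC box in its form GGGCGG, to the CCAAT box by those 5 letters and to the TATA box in its form TATAAA. The positions are chrX:157698723-157698972 on the plus strand for Smpx, and chr6:136661894-136662143 for Plbd1, chr4:62502201-62502450 for Hdhd3 and chr4:62520064-62520313 for the first of 2 Alad entries, all on the minus strand.
Smpx: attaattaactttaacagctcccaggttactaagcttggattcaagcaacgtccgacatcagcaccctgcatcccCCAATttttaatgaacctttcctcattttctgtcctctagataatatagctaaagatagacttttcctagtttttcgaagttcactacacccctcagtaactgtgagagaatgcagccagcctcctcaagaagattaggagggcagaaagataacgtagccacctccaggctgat
Plbd1: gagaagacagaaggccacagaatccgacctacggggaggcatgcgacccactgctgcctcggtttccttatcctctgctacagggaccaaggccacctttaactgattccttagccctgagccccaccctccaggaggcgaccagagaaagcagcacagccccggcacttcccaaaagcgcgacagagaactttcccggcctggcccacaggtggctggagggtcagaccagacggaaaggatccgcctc
Hdhd3: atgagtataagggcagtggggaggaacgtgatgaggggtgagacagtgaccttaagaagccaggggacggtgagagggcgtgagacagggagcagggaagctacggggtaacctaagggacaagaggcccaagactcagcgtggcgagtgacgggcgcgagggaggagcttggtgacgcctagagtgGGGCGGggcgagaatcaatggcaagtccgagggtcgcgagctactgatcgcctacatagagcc
Alad: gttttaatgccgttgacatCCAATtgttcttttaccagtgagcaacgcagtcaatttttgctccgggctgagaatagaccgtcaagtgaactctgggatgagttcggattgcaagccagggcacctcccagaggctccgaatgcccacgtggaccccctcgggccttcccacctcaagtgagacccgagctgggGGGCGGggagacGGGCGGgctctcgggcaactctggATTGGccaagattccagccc
The Smpx window holds 1 CCAAT box and no GC box, and that of Plbd1 none of the 3 motifs. The Hdhd3 window holds 1 GC box and the Alad window 2 GC and 2 CCAAT boxes. Among 32851 windows of this length, 32.7% hold a GC box, 33.8% a CCAAT box and 12.4% a TATA box. These are matches of letters, and a window without a match says nothing of any factor.

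Hdhd3, a haloacid dehalogenase-like hydrolase gene, read 5.08, 5.36 and 5.50 in Ttf/T43H testes against 2.62 and 2.33 in C57BL/6J testes (2.83 ± 0.17, adjusted p = 1.4e-04). Its neighbour Alad, which encodes an enzyme of haem synthesis and was picked after its values were seen, read 13.05, 13.19 and 13.31 in Ttf/T43H testes against 11.50 and 11.60 in C57BL/6J testes (1.63 ± 0.08, adjusted p = 7.4e-05). For both genes every carrier array lay above both controls. In sorted cells Hdhd3 was 0.19 higher (adjusted p = 0.75) and Alad 2.18 higher (adjusted p = 0.14) in Ttf/T43H than in C57BL/10J, and neither passed there.

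**Figure D1:**
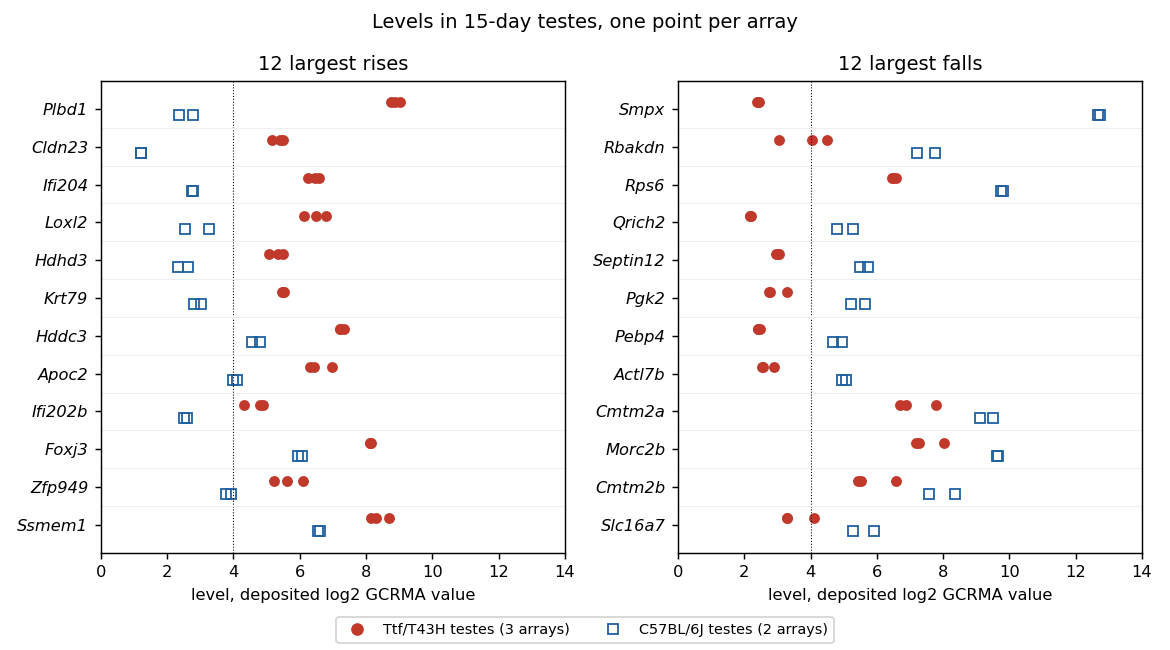
Level of the 12 largest named rises (left) and the 12 largest named falls (right), as deposited log2 values, with 1 point per array; filled circles are the 3 Ttf/T43H testes, open squares the 2 C57BL/6J testes, and the dotted line marks a log2 value of 4. For Smpx the carriers lie at 2.39 to 2.46 and the controls at 12.67 and 12.73.

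Among the other large rises were a pair of neighbouring interferon-inducible genes of the p200 family on chromosome 1, whose proteins bind DNA. Ifi204 stood at 6.46, 6.25 and 6.57 in Ttf/T43H testes against 2.75 and 2.78 in C57BL/6J testes (3.66 ± 0.13, adjusted p = 9.7e-06). Ifi202b stood at 4.81, 4.88 and 4.32 in Ttf/T43H testes against 2.60 and 2.51 in C57BL/6J testes (2.12 ± 0.16, adjusted p = 4.6e-04). Both controls were near background for both genes. The rest of the interferon list did not move the same way: of 16 tested members 2 rose, 2 fell (Oasl2 by 1.11 and Xaf1 by 0.72, both calls lost when any 1 of at least 4 arrays was left out) and 12 did not pass, with a median of -0.09. That is 25% of the list passing, against 8.72% of all genes. In sorted cells Ifi202b was 3.02 ± 0.60 higher in Ttf/T43H (adjusted p = 0.041), while Ifi204 did not reach the filter there.

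Cldn23, a tight junction claudin, read 5.50, 5.17 and 5.41 in Ttf/T43H testes and 1.21 on both C57BL/6J arrays (4.15 ± 0.15). Loxl2, a lysyl oxidase that cross-links collagen, read 6.13, 6.50 and 6.80 in Ttf/T43H testes against 2.55 and 3.26 in C57BL/6J testes (3.57 ± 0.32). Both were below a log2 value of 4 throughout the sorted cells of both strains. Krt79, a keratin gene, was higher by 2.58 ± 0.15, with controls at 2.81 and 3.02. The size of all these rises is rough, since the controls lay below 4 where the arrays carry little signal over background.

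Other rises were measured on both sides. Foxj3, a forkhead transcription factor, read 8.11, 8.15 and 8.11 in Ttf/T43H testes against 5.96 and 6.06 in C57BL/6J testes (2.11 ± 0.05, adjusted p = 1.9e-06). Hddc3, a hydrolase gene of chromosome 7, was higher by 2.57 ± 0.08, at 7.21 to 7.32 in Ttf/T43H testes against 4.57 and 4.80 in C57BL/6J testes. Apoc2, the apolipoprotein that activates lipoprotein lipase, read 6.96, 6.42 and 6.31 in Ttf/T43H testes against 4.11 and 3.99 in C57BL/6J testes (2.51 ± 0.20), and it was also higher in sorted Ttf/T43H cells, with an adjusted p of 0.027. Nnt, the mitochondrial transhydrogenase gene in which C57BL/6J mice are known to carry a deletion, read 9.29, 9.23 and 9.47 in Ttf/T43H testes against 8.10 and 8.10 in C57BL/6J testes (1.23 ± 0.08, adjusted p = 3.3e-04). Its difference in sorted cells, against C57BL/10J, was 0.60 (adjusted p = 0.31). Glo1, the glyoxalase of proximal 17, read 10.77, 10.72 and 10.93 in Ttf/T43H testes against 9.55 and 9.63 in C57BL/6J testes (1.22 ± 0.07), which rose on a chromosome part where falls prevailed.

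Germ cell genes were among the rises as well. Ssmem1, a testis gene, stood at 8.69, 8.30 and 8.14 in Ttf/T43H testes against 6.61 and 6.54 in C57BL/6J testes (1.80 ± 0.22). Efcab7, a ciliary EF-hand gene, stood at 11.64, 11.60 and 11.38 in Ttf/T43H testes against 9.92 and 9.83 in C57BL/6J testes (1.67 ± 0.10). Utp14b, an autosomal retrocopy of an X-linked gene that spermatogenesis requires, stood at 5.93, 6.16 and 5.73 in Ttf/T43H testes against 4.89 and 4.91 in C57BL/6J testes (1.04 ± 0.14, adjusted p = 0.0060). For none of these did the groups overlap, and Utp14b lost its call without either C57BL/6J replicate (adjusted p up to 0.050).

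The larger falls were mostly in genes with higher levels later in pachytene. The series holds a measure of this that does not use the testis arrays, the mean difference between mid-late and pre-mid-pachytene cells sorted from adult C57BL/10J males (2 arrays each). Of the 68 genes that fell 2-fold or more, 40 were at least 4-fold higher in the mid-late cells (58.8%), against 10.4% of all 9093 tested genes. The median of that stage difference was 2.76 log2 units among the 68 and -0.08 among all genes. Of the 43 genes that rose 2-fold or more, 13 were at least 4-fold higher in mid-late cells (30.2%). In whole testes, fewer cells of a type and less RNA per cell cannot be told apart.

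Among the 68 falls, 19 lay below a log2 value of 4 on every Ttf/T43H array and so entered the test through the C57BL/6J arrays alone. Of the 49 measured in both groups, 28 were at least 4-fold higher in mid-late cells (57.1%). Read the other way, of the 948 tested genes with such a stage difference 89 fell (9.39%, against 4.79% of all genes). Of the same 948, 28 rose (2.95%, against 3.93% of all genes), and their median testis difference was -0.04. Most of these 948 genes did not pass, which was also true of all genes, where 8.72% passed. Across the alternative settings between 35 and 97 genes fell 2-fold or more, and 45.7% to 67.2% of them were at least 4-fold higher in mid-late cells.

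**Figure D2:**
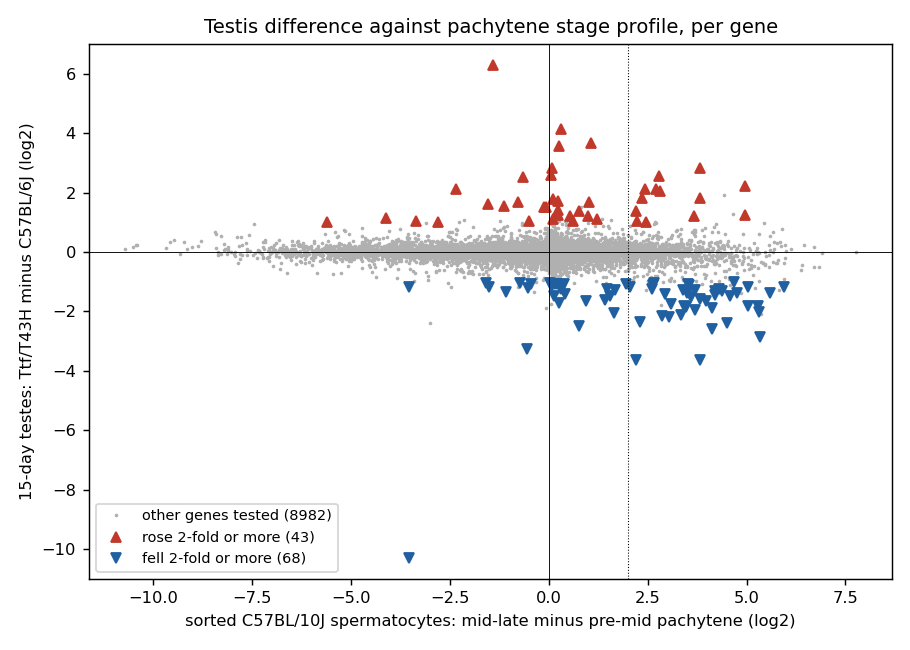
Each point is a tested gene; the vertical axis is the log2 difference of Ttf/T43H minus C57BL/6J testes and the horizontal axis the log2 difference of mid-late minus pre-mid-pachytene cells of C57BL/10J males, with a dotted line at 4-fold. Of the downward triangles (68 falls of 2-fold or more) 40 lie at or right of that line, and of the upward triangles (43 rises) 13 do.

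Pgk2, the testis phosphoglycerate kinase that arose as a retrocopy of an X-linked gene, read 3.30, 2.78 and 2.74 in Ttf/T43H testes against 5.66 and 5.23 in C57BL/6J testes (-2.50 ± 0.19, adjusted p = 5.4e-04). Septin12, a component of the sperm annulus, read 3.05, 2.95 and 3.01 in Ttf/T43H testes against 5.73 and 5.48 in C57BL/6J testes (-2.60 ± 0.13). Actl7b, a testis actin-like gene, read 2.53, 2.90 and 2.57 in Ttf/T43H testes against 5.08 and 4.94 in C57BL/6J testes (-2.35 ± 0.11). In each case both controls lay above 4 and no carrier array did. Qrich2, a sperm flagellum gene, and Pebp4 fell in the same manner, by 2.85 ± 0.13 and 2.38 ± 0.09.

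Several of these genes were well above background in both groups. Morc2b, a meiotic gene of proximal 17 needed for chromosome synapsis, read 8.02, 7.28 and 7.18 in Ttf/T43H testes against 9.67 and 9.62 in C57BL/6J testes (-2.15 ± 0.33, adjusted p = 0.010). The chromosome 8 neighbours Cmtm2a and Cmtm2b, members of a chemokine-like family, fell by 2.19 ± 0.35 and 2.12 ± 0.51. Their levels were 7.78, 6.70 and 6.88 in Ttf/T43H testes against 9.51 and 9.11 in C57BL/6J testes for Cmtm2a, and 6.58, 5.53 and 5.43 in Ttf/T43H testes against 8.35 and 7.58 in C57BL/6J testes for Cmtm2b. Ttf/T43H replicate 1 was the highest carrier array for all 3 genes, yet lay below both controls. Other falls had carrier arrays near or below 4. Slc16a7, a monocarboxylate transporter, fell by 2.04 ± 0.28, and Rbakdn fell by 3.63 ± 0.38, at 4.49, 4.03 and 3.05 in Ttf/T43H testes against 7.76 and 7.22 in C57BL/6J testes. Morc2b and Cmtm2a lost their calls without either C57BL/6J replicate (adjusted p up to 0.073 and 0.096), Slc16a7 without C57BL/6J replicate 1 (0.054), and Cmtm2b without any of 4 arrays (up to 0.25).

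Of 31 tested members of the list of mid-late pachytene and division genes 5 fell (16.1%, against 4.79% of all genes) and 1 rose, and the median difference was -0.04. Pgk2 and Tcp11, among these falls, lay below 4 on every Ttf/T43H array. Both entered the test through the C57BL/6J arrays alone, where they were higher, so the share that fell is no separate support. The falls were Pgk2, Acr (the acrosomal protease acrosin, -1.57 ± 0.23), Tcp11 (a t complex testis gene, -1.50 ± 0.29), and the cell cycle genes Plk1 (-0.43 ± 0.06) and Cdc25c (-0.34 ± 0.06). Calr3, a testis calreticulin, was the rise (0.41 ± 0.09), a call lost when any 1 of 4 arrays was left out (adjusted p up to 0.18). By the stage measure above, only Acr of these calls was at least 4-fold higher in mid-late cells (3.82). Tcp11, Plk1 and Pgk2 stood at 1.54, 1.31 and 0.75, and Cdc25c and Calr3 at -1.15 and -3.06. The mean level of the list was 9.15, 8.92 and 8.67 in Ttf/T43H testes against 9.23 and 9.04 in C57BL/6J testes, so the groups overlapped. This mean stepped down with replicate number, also in t12/T43 testes (8.46, 8.28 and 7.97), and C57BL/6J has no replicate 3. Of the 5 falls only Pgk2 kept its call in every alternative that tested it, and its levels lay below the filter at 6. Acr lost its call without C57BL/6J replicate 1, and Plk1 without either control. Tcp11 and Cdc25c lost theirs without Ttf/T43H replicate 2 or either control.

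Genes of the cilium and sperm tail were taken as a list by gene name after the values were seen, so their share is a description. Of 86 on the array 58 passed the filter, and of these 13 fell (22.4%, against 4.79% of all genes) and 1 rose, with a median of -0.14. Their mean level also stepped down with replicate number, at 7.89, 7.71 and 7.53 in Ttf/T43H testes and 8.17 and 7.96 in C57BL/6J testes. Rsph1, which encodes a radial spoke head protein and lies on proximal 17, read 11.60, 11.47 and 11.37 in Ttf/T43H testes against 13.26 and 13.12 in C57BL/6J testes (-1.71 ± 0.09, adjusted p = 7.7e-05). Cfap57 (a cilia and flagella associated gene), at 4.77, 4.64 and 4.11 against 6.57 and 6.33, and Lrrc23 (a radial spoke gene), at 4.02, 3.69 and 3.72 against 5.93 and 5.45, fell by 1.94 ± 0.33 and 1.88 ± 0.24. Iqub, Cfap65 and the dynein light intermediate chain gene Dnali1 fell by 1.81 ± 0.37, 1.39 ± 0.28 and 1.29 ± 0.23. The axonemal dynein light chain gene Dnal1 fell by 0.69 ± 0.04 and Tekt2, a tektin, by 0.94 ± 0.19. The intraflagellar transport gene Ift140, also on proximal 17, fell by 0.83 ± 0.08. For each of these genes all 3 carrier arrays lay below both controls. Rsph1, Lrrc23, Dnal1 and Ift140 kept their calls in every alternative that tested them, and Lrrc23 lay below the filter at 6. Cfap57, Iqub, Cfap65, Dnali1 and Tekt2 lost theirs when 1 array was left out, among them C57BL/6J replicate 1 for all 5.

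None of the tested members of the synapsis and recombination lists fell by limma's test; Morc2b is on neither. Of 17 synapsis and axis genes 1 rose (the cohesin subunit gene Smc3, 0.26 ± 0.06) and 16 did not pass, with a median of 0.17 and 1 of 17 below 0. Of 23 recombination genes 2 rose, with a median of 0.14. At an unadjusted p under 0.05, 5 synapsis genes were higher and 0 lower, and 7 recombination genes were higher and 1 lower. In either direction 2311 of all 9093 genes had such a p. Dmc1, the meiotic strand exchange recombinase, read 10.40, 10.47 and 10.29 in Ttf/T43H testes against 9.95 and 9.75 in C57BL/6J testes (0.54 ± 0.09, adjusted p = 0.016), and Mcm8, a helicase of recombination, was 0.34 ± 0.08 higher. The hotspot methyltransferase gene Prdm9, on proximal 17, read 5.95, 5.84 and 6.16 in Ttf/T43H testes against 5.73 and 5.50 in C57BL/6J testes and did not pass (adjusted p = 0.086). Leaving out replicate 2 of either group ended the call of Dmc1 (adjusted p up to 0.11), and Smc3 and Mcm8 lost theirs in several alternatives (up to 0.23 and 0.19). With 1 and 2 calls, these lists passed the test at 5.88% and 8.70%, against 8.72% of all genes.

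Among 21 genes of the DNA damage signalling that silences unsynapsed chromatin, 2 fell (9.52%, against 4.79% of all genes), 1 rose and the median was 0.05. Rnf8, a ubiquitin ligase of this pathway that lies on proximal 17, read 9.49, 9.47 and 9.54 in Ttf/T43H testes against 10.24 and 10.21 in C57BL/6J testes (-0.73 ± 0.05, adjusted p = 1.8e-04). Rad1, of the checkpoint clamp, fell by 0.26 ± 0.05, and Bard1, the partner of Brca1, rose by 0.33 ± 0.07. Of 14 tested p53 and apoptosis genes only Casp9, an initiator caspase gene, passed (7.14%, against 8.72% of all genes), at 0.35 ± 0.08 higher. Of these genes Rnf8 kept its call in every alternative, and Rad1, Bard1 and Casp9 lost theirs without either C57BL/6J replicate (up to 0.18, 0.18 and 0.19).

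Of 18 spermatogonial genes 2 fell (11.1%, against 4.79% of all genes) and 1 rose. Lin28a, an RNA-binding protein of undifferentiated spermatogonia, read 7.33, 7.62 and 7.53 in Ttf/T43H testes against 8.25 and 8.14 in C57BL/6J testes (-0.70 ± 0.12). Ccnd2, a cyclin D gene, fell by 0.36 ± 0.08, and Sohlh2, a transcription factor of differentiating spermatogonia, was 0.34 ± 0.06 higher. Stra8, which marks entry into meiosis, did not pass (0.24, adjusted p = 0.085). Of 19 piRNA genes 10.5% passed, against 8.72% of all genes. Mov10l1, the helicase of piRNA biogenesis, rose by 0.42 ± 0.09 and Pnldc1, the trimming nuclease on proximal 17, fell by 0.33 ± 0.06. All of these calls were lost without either C57BL/6J replicate, with adjusted p up to 0.13 or, for Mov10l1 and Ccnd2, 0.18 and 0.21.

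**Figure D3:**
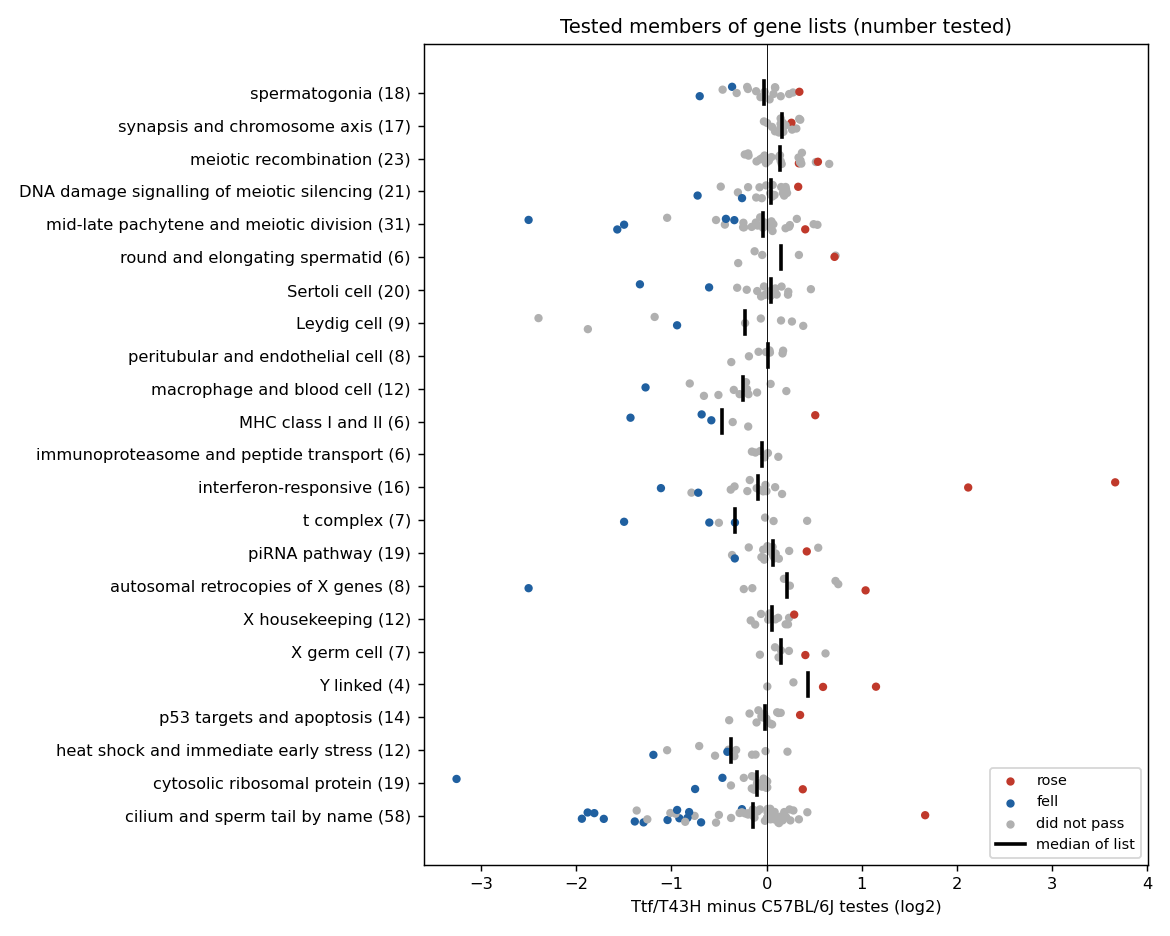
Log2 difference of Ttf/T43H minus C57BL/6J testes for each tested member of 23 gene lists (points), coloured by whether it rose, fell or did not pass, with the median of each list as a bar; horizontal positions are log2 units and the vertical scatter within a list carries no value. Recombination genes have a median of 0.14, and the MHC and stress lists medians of -0.47 and -0.37.

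Proximal chromosome 17 was the part of the genome where falls were most frequent. Of 269 tested genes, 78 fell (29.0%) and 5 rose (1.86%), against 4.06% and 3.99% of the 8824 genes elsewhere. The median difference on proximal 17 was -0.21, and 216 of the 269 genes (80.3%) lay below 0, against 48.2% elsewhere. The falls were shallow, with a median of -0.47 and only 8 at 2-fold or more. The number that fell was 55, 45 or 65 without Ttf/T43H replicate 1, 2 or 3 and 28 without either C57BL/6J replicate.

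The falls ran along the whole part rather than in 1 place. When the tested genes were taken in map order in 8 blocks of 30 and a last of 29, each block held 6 to 11 falls and its median lay between -0.29 and -0.14. The first block runs from Scaf8 to Tbp and the last from Aif1 to H2-M3. The longest run of neighbours that all passed in the same direction on chromosome 17 was Pfdn6, Wdr46, H2-K1 and Ring1, each lower. Ring1, a Polycomb ubiquitin ligase, read 6.96, 7.08 and 7.06 in Ttf/T43H testes against 8.07 and 8.13 in C57BL/6J testes (-1.07 ± 0.05, adjusted p = 7.2e-05).

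Distal 17, which begins at Pgk2, differed less. Of 178 tested genes 13 fell (7.30%) and 5 rose, and the median was -0.05. Lpin2, a phosphatidate phosphatase gene, rose by 0.66 ± 0.05 and Ltbp1, a TGF-beta binding protein gene, by 0.77 ± 0.09. On chromosome 16, the other partner of the translocation, 18 of 290 tested genes fell (6.21%) and 8 rose, with a median of -0.04. Septin12 had the largest fall there, and the mitochondrial dehydrogenase gene Bdh1 fell by 0.72 ± 0.07. Over 20 chromosome sets without proximal 17 and the Y, the share that fell lay between 1.27% on the X and 7.57% on chromosome 4.

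**Figure D4:**
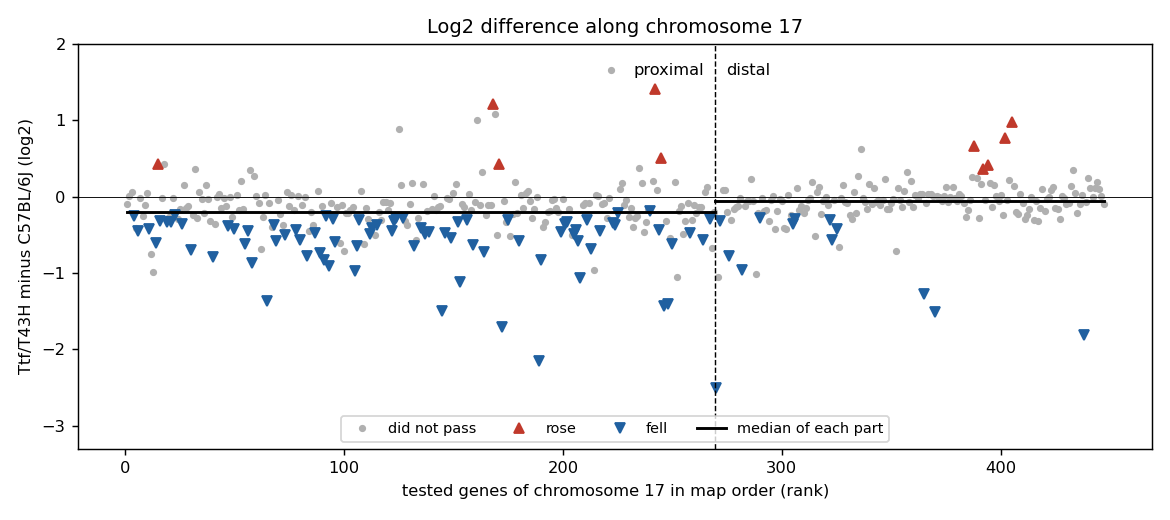
Log2 difference of Ttf/T43H minus C57BL/6J testes for the tested genes of chromosome 17 in map order, with rank on the horizontal axis, coloured by whether the gene rose, fell or did not pass; bars are the medians of the proximal (-0.21) and distal (-0.05) parts, divided by the dashed line. Falls are spread along the proximal part.

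**Figure D5:**
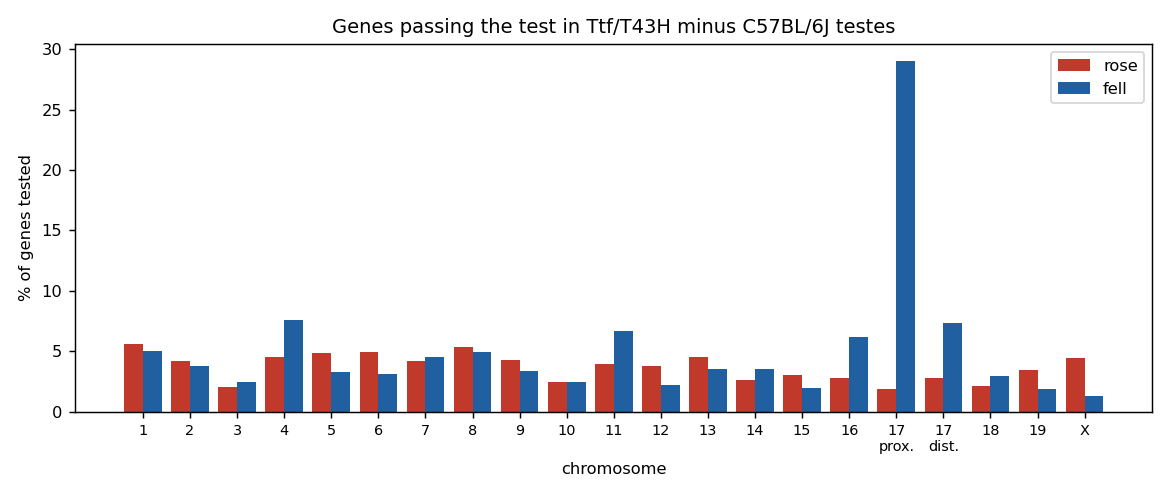
Share of tested genes that rose (left bar) or fell (right bar) in Ttf/T43H testes relative to C57BL/6J testes, in percent, for each chromosome and both parts of chromosome 17; the Y, with 4 tested genes, is left out. On proximal 17, 29.0% fell and 1.86% rose.

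The MHC genes lie on proximal 17, and which haplotypes of this region the compared animals carry was not examined. Of 18 on the array only 6 passed the filter, of which 3 fell and 1 rose (median -0.47). The falls are 50% of those tested, against 29.0% of proximal 17 genes and 4.79% of all genes. H2-K1, a classical class I gene, read 10.37, 10.12 and 10.40 in Ttf/T43H testes against 10.97 and 10.79 in C57BL/6J testes (-0.58 ± 0.10, adjusted p = 0.014). H2-D1, the other classical class I gene, went the opposite way, at 11.30, 11.35 and 11.63 in Ttf/T43H testes against 10.94 and 10.90 in C57BL/6J testes (0.51 ± 0.10, adjusted p = 0.023). H2-Q10, a class I gene, fell by 1.43 ± 0.14 and the class II gene H2-Ab1 by 0.68 ± 0.07. H2-Ab1 averaged 3.70 in Ttf/T43H testes and 4.38 in C57BL/6J testes, close to the filter at 4. Members of this family share sequence, so their probes may not keep them apart. In sorted cells H2-K1 fell by 3.20 ± 0.34 (adjusted p = 0.0037), at 10.47, 10.13 and 10.21 in Ttf/T43H against 13.45 and 13.50 in C57BL/10J. None of 6 tested immunoproteasome and peptide transport genes passed limma's test, and 0 had an unadjusted p under 0.05. Leaving out C57BL/6J replicate 1 ended the testis call of H2-K1, and leaving out Ttf/T43H replicate 2 or either control that of H2-D1 (adjusted p up to 0.10 and 0.13).

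Of the t complex genes 7 of 13 on the array passed the filter and 3 of these fell, with none higher (median -0.33). The falls are 42.9% of those tested, against 29.0% of proximal 17 genes and 4.79% of all genes. Tcp11 read 3.96, 3.21 and 2.78 in Ttf/T43H testes against 4.75 and 4.87 in C57BL/6J testes. It thus entered the test through the C57BL/6J arrays alone. Qk, an RNA-binding protein, read 4.52, 4.47 and 4.49 in Ttf/T43H testes against 5.03 and 5.16 in C57BL/6J testes (-0.60 ± 0.07, adjusted p = 0.0040). Tcp1, a chaperonin subunit, read 13.60, 13.61 and 13.50 in Ttf/T43H testes against 13.93 and 13.88 in C57BL/6J testes (-0.33 ± 0.08, adjusted p = 0.040). These are proximal 17 genes, and their share is not independent of that of the whole part. Qk kept its call in every alternative that tested it, and its levels lay below the filter at 6. Tcp1 lost its call without any 1 of the 5 arrays.

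The sex chromosomes did not share the fall of proximal 17. On the X 14 of 315 tested genes rose (4.44%) and 4 fell (1.27%), with a median of 0.01. The X germ cell list had 1 rise among 7 tested genes, Tex16 (0.41 ± 0.06, or adjusted p = 0.076 without C57BL/6J replicate 2), and the X housekeeping list 1 among 12, the demethylase gene Kdm6a (0.29 ± 0.07, lost without any of 4 arrays, up to 0.23). These rises are 14.3% and 8.33% of the 2 lists, against 3.93% of all genes. On the Y 2 of 4 tested genes rose (50%). Zfy2, a zinc finger gene of the Y with roles in meiosis, read 8.24, 8.38 and 8.41 in Ttf/T43H testes against 7.42 and 6.97 in C57BL/6J testes (1.15 ± 0.14, adjusted p = 0.0049). Usp9y, a deubiquitinase gene of the same chromosome, read 8.63, 8.68 and 8.59 in Ttf/T43H testes against 8.12 and 7.96 in C57BL/6J testes (0.59 ± 0.07, adjusted p = 0.0050). Eif2s3y, which spermatogonia need, read 10.71, 10.66 and 10.73 in Ttf/T43H testes against 10.70 and 10.69 in C57BL/6J testes and did not pass (0.01, adjusted p = 0.97), and neither did Uty.

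Of 49 tested genes on the lists of somatic testis cells 4 passed (8.16%, against 8.72% of all genes), and all 4 fell (against 4.79%). Of 20 Sertoli cell genes 2 fell, Trf (transferrin, -1.33 ± 0.19) and Mro (-0.60 ± 0.11), and the median was 0.04. Of 9 Leydig cell genes only the steroid dehydrogenase gene Hsd3b1 passed, at 9.58, 9.87 and 10.08 in Ttf/T43H testes against 10.83 and 10.73 in C57BL/6J testes (-0.94 ± 0.16). The median of the Leydig list was -0.23. Cyp11a1, the first enzyme of steroid synthesis, read 5.19, 7.89 and 8.64 against 8.29 and 8.54, so replicate 1 of the carriers stood apart and the groups overlapped. None of 8 peritubular and endothelial genes passed limma's test (3 at an unadjusted p under 0.05, as were 2311 of all 9093 genes). Of 12 macrophage and blood cell genes Adgre1, the macrophage marker that encodes F4/80, fell by 1.27 ± 0.23, with 10 of 12 below 0 and a median of -0.25, and their mean level ranged from 6.77 to 7.39 in Ttf/T43H testes and from 7.30 to 7.43 in C57BL/6J testes. Trf, Hsd3b1 and Adgre1 lost their calls without either C57BL/6J replicate, and Mro without C57BL/6J replicate 2 (adjusted p of 0.065 to 0.12). The part of somatic cell content in the other results was not tested.

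Most stress genes lay on the low side. Of 12 tested members 11 lay below 0 (91.7%, against 49.1% of all genes), 2 fell (16.7%, against 4.79%) and the median was -0.37. Of the 12, Dusp1, Hspa1a, Hspa1b and Ier3 lie on proximal 17, where 80.3% of genes lay below 0. The mean level of the list was 8.50, 8.48 and 8.51 in Ttf/T43H testes against 9.08 and 8.75 in C57BL/6J testes. The immediate early gene Egr1 read 9.89, 9.89 and 9.95 in Ttf/T43H testes against 11.54 and 10.66 in C57BL/6J testes (-1.19 ± 0.23, adjusted p = 0.022), and Jun was 0.41 ± 0.07 lower. Egr1 also had a wide gap between the control arrays. Btg2, an early response gene, read 8.24, 8.44 and 8.30 in Ttf/T43H testes against 9.17 and 8.28 in C57BL/6J testes and did not pass. Both calls depended on single arrays, with an adjusted p of up to 0.074 for Egr1 (without Ttf/T43H replicate 2) and 0.12 for Jun in fits that left out 1 array.

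Of 19 tested genes of cytosolic ribosomal proteins, which build the ribosome, 3 fell (15.8%, against 4.79% of all genes) and 1 rose, with a median of -0.10. Their mean level was 11.62, 11.67 and 11.64 in Ttf/T43H testes against 11.94 and 11.95 in C57BL/6J testes, so the groups did not overlap. This mean includes Rps6, whose fall was far larger than the list's median of -0.10. Rps6 read 6.47, 6.59 and 6.49 in Ttf/T43H testes against 9.81 and 9.74 in C57BL/6J testes (-3.26 ± 0.08, adjusted p = 1.9e-06). Ribosomal protein genes have many near-identical processed copies in the genome, so the source of this signal is uncertain. Rps6 lay in a run of 4 called neighbours on chromosome 4 that were all lower, with Plin2, a lipid droplet protein (-0.62 ± 0.13), Acer2, a ceramidase (-1.05 ± 0.12), and Mllt3 (-0.59 ± 0.10); this run was picked after its values were seen. Rps6 and Acer2 kept their calls in every alternative that tested them, while Plin2 and Mllt3 lost theirs without either C57BL/6J replicate, among others. Of 70 mitochondrial ribosomal genes 5 fell (7.14%) and 55 lay below 0. At an unadjusted p under 0.05 17 were lower and 4 higher, against 2311 of all 9093 genes in either direction. Of 31 proteasome genes 1 fell (3.23%, against 4.79% of all genes), Psmb6 (-0.71 ± 0.04), and of 210 Zfp genes 15 fell (7.14%) and 7 rose. Zfp949 stood out among the last, at 5.23, 6.11 and 5.62 in Ttf/T43H testes against 3.92 and 3.77 in C57BL/6J testes (1.81 ± 0.23, or adjusted p = 0.051 without C57BL/6J replicate 2). Zfp54, Zfp523, Zfp943, Zfp944 and Zfp955b among the Zfp falls, and Mrpl28 and Mrps34 among the mitochondrial ribosomal falls, lie on proximal 17. Of 34 collagen, laminin and integrin genes 1 rose and 2 fell, among them Itgae (-1.23 ± 0.14). That is 8.82% passing, against 8.72% of all genes.

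The sorted spermatocytes set Ttf/T43H carriers against a control strain on other arrays, with C57BL/10J as control. Age and the cells used differ from the testis comparison as well. There 196 of 8858 tested genes passed (2.21%), 59 higher (0.666%) and 137 lower (1.55%). Of 688 genes that passed in testes and were tested in sorted cells, 428 (62.2%) had the same sign, against 54.8% of all 7910 genes tested in both. Only 28 passed in both, which is 4.07% of the testis calls and 24.3% of the 115 sorted calls tested in testes. Of the 28, 17 were lower in both, 10 higher in both and 1, Efhd2, lower in testes and higher in sorted cells. The sorted count was 386 without Ttf/T43H replicate 2 and between 13 and 82 without any other array.

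Proximal 17 holds 9 of the 27 genes that passed in both with the same sign; the genes of this paragraph were picked after their values were seen. They are Daxx, Hagh, H2-Ab1, H2-K1, Rsph1, Thoc6, Akap8l, Rnf5 and Pgap6, all lower in the carriers. Hagh, a glyoxalase of the glutathione pathway, read 10.30, 10.33 and 10.22 in Ttf/T43H testes against 11.10 and 11.03 in C57BL/6J testes (-0.78 ± 0.06), and 10.87, 10.88 and 10.91 in sorted Ttf/T43H cells against 12.65 and 12.72 in C57BL/10J (-1.80 ± 0.25). Rnf5, an endoplasmic reticulum ubiquitin ligase, was lower by 0.44 ± 0.09 in testes and by 2.53 ± 0.32 in sorted cells. Of 73 proximal 17 genes that fell in testes and were tested in sorted cells, 56 lay below 0 there, with a median of -0.62, as did 141 of all 227 tested proximal 17 genes. Elsewhere in the genome Tmem159 was lower by 0.99 ± 0.08 and 2.90 ± 0.26, and the carboxypeptidase gene Cpn1 by 1.64 ± 0.31 and 3.25 ± 0.40. Frg1 was higher by 0.71 ± 0.06 and 1.59 ± 0.27. In testes Hagh, H2-Ab1, Rsph1, Tmem159 and Frg1 kept their calls in every alternative, and Rnf5 (up to 0.15) and Cpn1 (up to 0.078, without Ttf/T43H replicate 1 or 2) did not.

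The t12/T43 testes share the carriers' background and were read against the same C57BL/6J arrays, so their own difference from C57BL/6J is not described here, and the carriers were set against each other directly. That difference passed for 452 of 9093 genes (4.97%), 359 higher (3.95%) and 93 lower (1.02%) in Ttf/T43H than in t12/T43, but the count ran from 4 to 897 when 1 array was left out. Of the 793 genes that set Ttf/T43H apart from C57BL/6J, 70 also differed between the carriers. Of the 436 falls, 37 passed this test with Ttf/T43H above t12/T43 and 12 with it below. Of the 357 rises, 12 passed with Ttf/T43H above and 9 with it below. By sign alone, without a test, Ttf/T43H lay above t12/T43 for 230 of the falls and below it for 206. For Rsph1 the levels were 11.60, 11.47 and 11.37 in Ttf/T43H against 10.43, 10.25 and 10.26 in t12/T43 (1.17, adjusted p = 0.0030), and for Morc2b 8.02, 7.28 and 7.18 in Ttf/T43H against 6.27, 5.98 and 5.32 in t12/T43 (1.64, adjusted p = 0.039). For Qk the order was the other way, at 4.52, 4.47 and 4.49 in Ttf/T43H against 5.12, 5.18 and 4.98 in t12/T43 (-0.60, adjusted p = 0.021). Of the 78 proximal 17 falls, 17 differed between the carriers, with Ttf/T43H above t12/T43 for 10 and below it for 7.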

How the data were processed

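The 5 testis arrays and the side groups were assigned from the sample titles. Per the submitters' processing notes GCRMA, a method of background correction, normalization across arrays and probe summary, made the log2 values that the authors deposited. Its version and any filter or build are not given in the sources used here. Per the labels, RNA (20 to 30 ng) was labelled with biotin over 2 cycles. A custom chip definition gives 1 probe set per gene: of 16539, 15780 carry 1 symbol, 0 several and 759 none, and the last, 64 of them controls, were left out. RefSeq GRCm38.p6 supplied names, chromosomes and gene order only, and placed 15749 genes. Arrays give no read depth, and their number limits the precision.

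The values were used as deposited. One mean per group was fitted to the 8 testis arrays with limma 3.58.1 in R 4.3.3 (lmFit and eBayes), so the t12/T43 arrays add to the estimate of spread; the sorted cells were fitted apart. Tests are two-sided, Benjamini-Hochberg adjustment ran over every gene tested in a comparison, an adjusted p under 0.05 is called, and errors are limma's standard errors (SE). A gene is said to rise, fall or pass only by this test. A difference in level cannot be told apart from base differences between the strains under the probes. On simulated data with independent noise for each array, the fit recovered 93% of changes of 1 log2 unit. It recovered 97% of changes of 2 units and made 21 false calls. Such noise leaves out variation shared between arrays, so the simulation does not cover the dependence of the calls on single arrays.

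Named genes are, among calls without overlap and leaving out clone names, the top 12 in each direction by size, up to 4 per list by smallest p, likewise for the X, the Y, both parts of 17 and chromosome 16, and set genes such as Nnt and Zfy2; the text names fewer, and says where others were picked. The members and lists were chosen with earlier results of these data known, and the ribosomal list was corrected to leave out kinases of similar name. Replicate numbers were checked for pairing. Alternatives dropped the filter or set it at 6, normalized by quantiles or centred on medians, and otherwise used the arrays of the compared groups only, a trended prior, a replicate block and leaving out each array.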

Additional observations from a re-analysis of the deposited data

Results flagged for a closer look

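For 11 named genes that separated Ttf/T43H from C57BL/6J testes, limma's direct test of Ttf/T43H minus t12/T43 testes also passed, so the difference from the shared C57BL/6J arrays was not the same in the 2 carrier groups. The difference between the carriers was 1.64 for Morc2b, 1.45 for Cmtm2a, 1.25 for Ssmem1, 1.17 for Rsph1 and 1.15 for Ifi202b. It was 0.49 for Efcab7, 0.48 for Actl7b, 0.40 for Tcp1 and 0.34 for Pnldc1. It was -0.81 for H2-K1 and -0.60 for Qk. The number of genes passing this test ran from 4 to 897 when 1 array was left out.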

How the results depend on the processing

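The count of 793 testis calls was 490 with the arrays of the compared groups only (210 higher, 280 lower) and 2145 with a replicate block (1092 higher, 1053 lower); with 1 array left out it lay between 233 and 832 (87 to 412 higher, 140 to 420 lower). Proximal 17 held 28 to 65 falls in those fits. The Ttf/T43H minus t12/T43 count of 452 was 149 with no filter, 29 with the compared groups only, 1706 with the block, and 4 to 897 with 1 array left out. The sorted count of 196 was 19 with the block and 13 to 386 with 1 array left out. Replicate numbers were not taken as pairing: deviations of same-numbered Ttf/T43H and C57BL/6J arrays correlated at 0.39 and 0.17, with pairs across the testis groups from -0.07 to 0.67, and 6 of 8 arrays were closest to their own number in another group. Of 91 named genes that passed, 42 kept their calls in every alternative that tested them and 0 reversed. A gene below the filter at 6 was not tested there and counts as kept. Of those that did not pass, the sign turned when 1 array was left out for Btg2 (-0.84 to 0.051, above 0 without C57BL/6J replicate 1), Eif2s3y (-0.010 to 0.028, below 0 without Ttf/T43H replicate 3) and Tapbpl (-0.23 to 0.079, above 0 without Ttf/T43H replicate 2). Values below 4 carry little signal over background, so the size of on-off differences is rough.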

Other observations

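The 5 genes of distal 17 that rose were Lpin2, Clip4, Lclat1, Ltbp1 and Vit, which lie at ranks 388 to 405 of the tested genes of chromosome 17 in map order. Shbg, which encodes the sex hormone binding globulin and was picked after its values were seen, read 10.91, 10.95 and 11.24 in Ttf/T43H testes against 9.81 and 9.77 in C57BL/6J testes (1.24 ± 0.12, adjusted p = 0.0020 by limma). Entpd4, a nucleotide phosphohydrolase gene, read 7.89, 7.73 and 7.72 in Ttf/T43H testes against 9.07 and 8.99 in C57BL/6J testes (-1.25 ± 0.07, adjusted p = 7.4e-05), and its difference in sorted cells, against C57BL/10J, was 0.14 (adjusted p = 0.87). Efhd2, the gene whose sign turned between the comparisons, read 10.34, 10.41 and 10.56 in Ttf/T43H testes against 11.47 and 11.53 in C57BL/6J testes, and 7.18, 7.16 and 7.07 in sorted Ttf/T43H cells against 5.45 and 5.74 in C57BL/10J cells.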
